A study of Gallus gallus with 4 samples.

Results

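The most active transcription units (TUs) in lampbrush chromosome (LBC) stage oocytes of the chicken were selected on their FPKM, a count of fragments scaled by exonic length and by the total of fragments. A TU was 1 gene of a transcript assembly, and its strongest transcript by FPKM stood for it. A TU was selected when this FPKM reached the 98th percentile of its assembly run, 59.1 in the run of forward reads (FORW) and 60.01 in the run of reverse reads (REV). The rule gave 229 of 11419 nuclear TUs in the forward run (2.01%) and 230 of 11463 in the reverse run (2.01%), which is 459 of 22882 in all, and it fixes this share. The 916 TUs between the 48th and the 52nd percentile of each run, called middle TUs below, served as the reference.

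The study sequenced strand-specific poly(A) libraries from WT chicken oocytes, 2 from isolated nuclei and 2 from ooplasm, the cytoplasm of the oocyte. The labels mention formaldehyde fixation of the nuclei, which the study's account of its RNA work does not. Reads were pooled with those of earlier total RNA of oocyte nuclei before assembly, so no value can be traced to 1 library, nucleus and ooplasm cannot be set against each other, and there is no replicate error. Whether ooplasm reads entered the pool was not stated, and the depth of each library is unknown. FPKM in such a pool reflects how much RNA was present, not how fast it was made.

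Lampbrush chromosomes form in growing oocytes of birds and amphibians during the prolonged diplotene stage of meiosis. Their chromatin extends into lateral loops, on which RNA polymerases follow each other closely and carry nascent transcripts of increasing length. The oocyte also stores processed, polyadenylated messenger RNA for the early embryo. A de novo assembler such as StringTie joins overlapping and spliced reads into exons and transcripts without gene models, so that a spliced message appears as short exons over a long span and an unspliced stretch of RNA as 1 long exon.

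By the values that chose them, the most active TUs had a median FPKM of 86.3 (quartiles 69.7 and 118.3, highest 1197), against 2.00 (quartiles 1.92 and 2.09) in middle TUs. The ratio of the medians was 43.2. Their median coverage was 912.3 reads per base, against 21.1 in middle TUs. The most active TUs held 27.9% of the summed FPKM, while the middle TUs held 0.974% of the forward sum and 0.966% of the reverse sum. Values fell off steeply with rank, since 170 of the 459 TUs reached an FPKM of 100, 34 reached 200 and 6 reached 500. Values ran on without a gap across the limit. Just inside the limit stood FORW.8740, FORW.1102 and FORW.271 with FPKM of 59.1, 59.5 and 59.6, and just under it FORW.7088, FORW.3732 and FORW.5344 with 58.9, 58.7 and 58.6. In the reverse run REV.9738, REV.5571 and REV.10039 were inside with 60.02, 60.2 and 60.3, and REV.5932, REV.8812 and REV.8020 were outside with 59.96, 59.8 and 59.7.

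**Figure D1:**
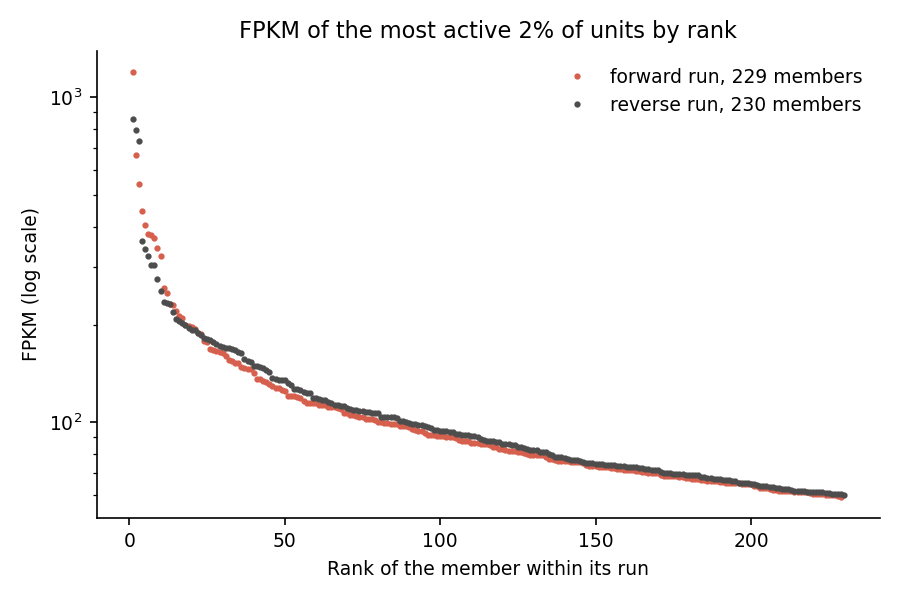
FPKM (log scale) of every selected TU against its rank within its run (229 forward and 230 reverse TUs). Both curves drop steeply over the first ranks and then flatten towards the limits of 59.1 and 60.01.

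The strongest TU, FORW.662, lay on chromosome 1 from 78641289 to 78644980 on the plus strand of the assembly ASM2420605v2, which all coordinates here refer to. It had an FPKM of 1197 over 11 exons that filled 38.9% of a span of 3.69 kb. It was followed by REV.9163 on chromosome 21 (3233161 to 3245749, 12 exons) with an FPKM of 855.1 and by REV.6840 on chromosome 10 (7984411 to 7991552, 9 exons) with 795.4. REV.7841 on chromosome 14 (4174114 to 4178393, 6 exons) had 732.0, FORW.3436 on chromosome 3 (83071487 to 83077777, 8 exons) had 665.9, and FORW.4619 on chromosome 4 (85782032 to 85791477) had 540.4 in only 2 exons. These 6 TUs were the ones above 500, and they lay on 6 different chromosomes. FORW.8976 on chromosome 19 (448.2), FORW.11145 on Z (404.0) and FORW.6779 on chromosome 9 (380.6) followed in the forward run, and FORW.9002, FORW.9685, FORW.544 and FORW.4236 had 378.4, 368.7, 342.9 and 324.9. REV.4282 on chromosome 4 (361.1), REV.6774 (341.6) and REV.6780 (325.4), both on chromosome 10, followed in the reverse run, and REV.5104, REV.6290, REV.236 and REV.2582 had 305.2, 304.5, 276.6 and 253.2. Gene names were not assigned to any of them, because the files pair the TUs with no gene and no annotation of this assembly was used here. For the same reason the labelled cell type was not checked against marker genes.

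Ranked by FPKM, the most active TUs were spliced units of shorter span than middle TUs. They had a median of 8 exons (quartiles 5 and 12), against 2 exons (2 and 6.25) in middle TUs, over a median span of 10.1 kb (5.52 to 19.7) against 16.6 kb (7.07 to 33.5). Of the 459 TUs, 260 had 3 to 9 exons, 136 had 10 to 19 and 38 had 20 or more. On span, 92 TUs measured under 5 kb and 255 from 5 to 20 kb, whereas 26 reached 50 kb. For the tests, both groups were compared on each of the 26 chromosomes with at least 5 TUs of either group, and an exact two-sided sign test counted the chromosomes that differed in each direction, with p-values adjusted over 12 tests (Benjamini-Hochberg). The median exon number was higher in the most active TUs on 24 of 26 chromosomes, lower on 1 and tied on 1 (adjusted p = 6.2e-06, exact sign test). The median span was lower on 24 of 26 chromosomes (adjusted p = 2.52e-05, exact sign test). Span contains the exonic length, by which FPKM divides, so this test cannot separate a shorter span from the way TUs were selected. The shorter span depends on how activity is scored. TUs were also ranked by coverage summed over their exonic length, a choice made after seeing the data. The top 2% then spanned 12.1 kb more than the middle, with a longer median on 27 of 27 chromosomes. The excess of exons shrank to 2 and lost its call (adjusted p = 0.315, exact sign test) once TUs under an FPKM of 1 were left out before ranking by FPKM. Neither group held such TUs, so this alternative acted by resetting the percentiles. It compared 302 of the most active with 602 middle TUs, both chosen anew, here and wherever it is named below.

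A single exon was nearly absent among the most active TUs. Only 1 of 459 (0.218%; 95% Wilson interval 0.0385 to 1.22%) was a single exon, against 193 of 916 middle TUs (21.1%; 18.6 to 23.8%). The share was lower on 24 chromosomes and tied on 2 (adjusted p = 7.15e-07, exact sign test). Without TUs under an FPKM of 1 the shares were 0.331% and 7.81%, and the difference shrank to −7.48 percentage points (adjusted p = 0.00311, exact sign test). Wilson intervals here cover counting error only. The exception was REV.6539 on chromosome 9 (5635711 to 5637959, minus strand), a block of 2.25 kb with an FPKM of 195.8 and a coverage of 2057 reads per base. TUs of 2 exons were also fewer, 24 of 459 (5.23%) against 269 of 916 (29.4%).

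Exons took up a small part of the active TUs. In multi-exon TUs the exons covered a median of 24.0% of the span (quartiles 15.9 and 39.8%) in 458 of the most active, against 62.2% (29.7 and 87.2%) in 723 middle TUs. The exonic length was 2.34 kb against 8.60 kb. Both were lower on all 26 chromosomes, and neither was tested, because FPKM divides by exonic length and so is not independent of it. When TUs were ranked by coverage summed over exonic length, the exonic lengths were 5.73 kb and 5.77 kb, higher on 14 and lower on 13 chromosomes, and without TUs under an FPKM of 1 the exonic shares were 23.9% and 41.3%. Exons filled at least 90% of the span in 6 of 458 of the most active TUs (1.31%) and in 155 of 723 middle TUs (21.4%). An exonic length of 10 kb or more was found in 6 of 459 of the most active and in 419 of 916 middle TUs (45.7%). The terminal exons, which are part of the exonic length by which FPKM divides, were shorter as well. The last exon made up a median of 53.5% of the exonic length in the most active and 57.7% in middle TUs. The last exon had a median of 1137 bp against 3658 bp and was shorter on 24 of 26 chromosomes, the first exon had 215.5 bp against 377 bp, and inner exons had 122.75 bp against 137 bp. These exon lengths and this share were compared after the data had been seen and carry no test. The difference in introns did not pass the test, with a median intron of 0.715 kb in the most active and 1.00 kb in middle TUs (lower on 16 and higher on 10 chromosomes, adjusted p = 0.392, exact sign test). The first intron measured 1441 bp against 1117 bp and the longest intron 2627 bp against 2317 bp, both without a test. The longest intron is a maximum over the introns of a TU, and the most active TUs had more exons to begin with.

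**Figure D2:**
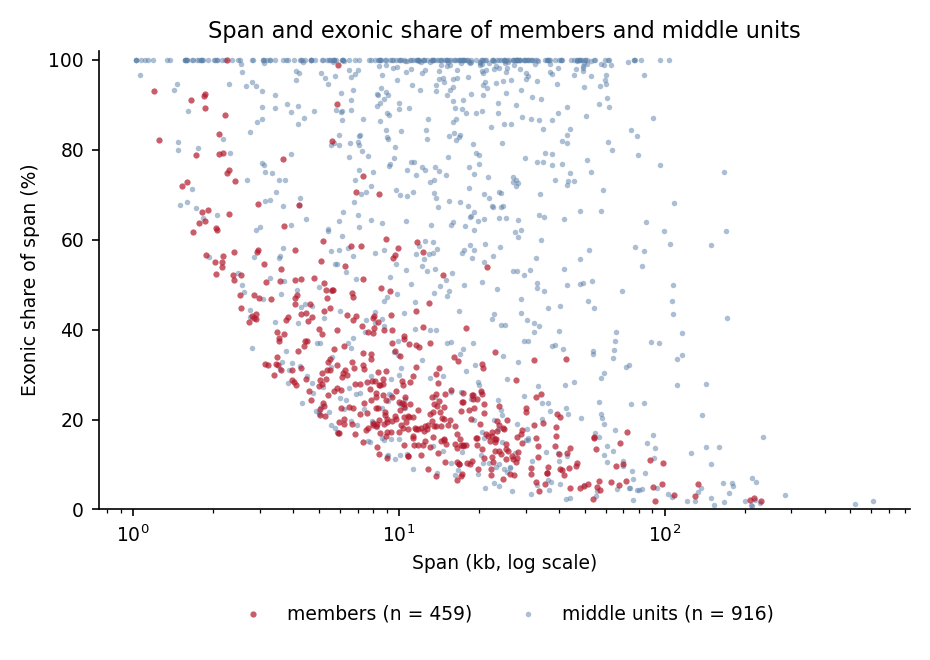
Span (kb, log scale) against the exonic share of the span (%) for 459 of the most active TUs (members) and 916 middle TUs. Most of the active TUs lie low, around a median share of 24.0% for those with several exons, while many middle TUs form a band at 100%, which holds the 193 with a single exon.

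Few of the most active TUs carried alternative transcripts. The median was 1 transcript per TU against 2 in middle TUs, lower on 19 chromosomes and tied on 7 (adjusted p = 1.14e-05, exact sign test). The rule scored each TU by its strongest transcript alone, so reads spread over several transcripts lowered the score. With FPKM summed over the transcripts of a TU, the medians were again 1 and 2. They were lower on 20 chromosomes, higher on 2 and tied on 4 (adjusted p = 0.000291, exact sign test). A single transcript was assembled for 356 of 459 of the most active (77.6%) and for 411 of 916 middle TUs (44.9%). At least 5 transcripts were found in 3 of the most active and in 88 middle TUs (9.61%). The TU with the most transcripts was FORW.8443 on chromosome 16 (1861237 to 1905156) with 9 and an FPKM of 91.6. Its leading transcript lay inside FORW.8442 (1856000 to 1948338), and other transcripts of FORW.8443 ran on to 1954457. FORW.8442 had 5 transcripts and an FPKM of 118.8, so reads could be split between both TUs. REV.10474 on chromosome 33 had 6 transcripts with an FPKM of 112.5, and REV.4726 on chromosome 5 and FORW.7162 on chromosome 11 had 4 each with 126.8 and 65.9. Of the strongest TU, FORW.662, the leading of 2 transcripts held 80.2% of the summed FPKM.

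The extremes show how widely the structure of active TUs varied. The longest was FORW.11297 on Z (59168354 to 59399861), which had 21 exons over 231.5 kb and an FPKM of 166.1. Its exons were covered at 955.3 reads per base in the first, 1430 to 2561 in the inner 19 and 1779 in the last of 2004 bp. REV.4801 on chromosome 5 (23549909 to 23767706) spanned nearly as far with only 4 exons and an FPKM of 64.2. REV.10824 on Z (7986510 to 8195889) had 28 exons and an FPKM of 60.6. A single intron took up 170.3 kb of the 217.8 kb of REV.4801 and 131.3 kb of the 209.4 kb of REV.10824. The assembly required 5 reads for a junction. REV.5047 on chromosome 5 (44439118 to 44573228) and REV.2807 on chromosome 3 (31295861 to 31426550) had 11 and 7 exons and FPKM of 72.0 and 69.4. Only 6 of the most active TUs (1.31%) reached 100 kb, against 44 middle TUs (4.80%). The TU with the most exons was FORW.5265 on chromosome 5 (48985362 to 49027871), whose 78 exons had an FPKM of 135.6. Next came FORW.1877 on chromosome 2 with 56 exons (FPKM 86.2), REV.2979 on chromosome 3 with 48 (69.7), and REV.882 on chromosome 1 and FORW.7551 on chromosome 12 with 45 each (69.4 and 112.9).

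In the most active TUs, exon coverage was at the median slightly lower over the 5′ part of the exonic length than over the 3′ part. The 3′ bias, the log2 ratio of the mean coverage over the 3′ part of the exonic length to that over the 5′ part of equal length, had a median of 0.13 (quartiles −0.21 and 0.46), against −0.09 (−0.64 and 0.06) in middle TUs. It was higher on all 26 chromosomes (adjusted p = 3.58e-07, exact sign test), and the unadjusted p of 2.98e-08 is the smallest this test can give. A positive bias was found in 285 of 458 of the most active TUs (62.2%) and in 260 of 723 middle TUs (36.0%). A bias below −1 was rarer, in 22 against 125 TUs. Among TUs ranked by summed coverage the difference was 0.07 (adjusted p = 0.0896, exact sign test).

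By bins of the exonic length, the medians of both groups differed most at the 5′ end. The exonic length was cut into 10 equal bins from the 5′ end. Each exon entered with its mean coverage, so a change of coverage inside an exon cannot appear. TUs of 2 exons, 24 of the most active and 269 of the middle TUs, thus have only 2 levels. The part of exon number and exon length in the contrast was not tested. In the most active TUs bin 1 had a median coverage of 0.576 times the mean of the TU, bin 2 had 0.918 and bins 3 to 10 had between 1.02 and 1.05. In middle TUs bin 1 stood at 1.03 and bin 10 at 0.925. The bias of the most active TUs was 0.25 at an exonic length of 1 to 2 kb (178 TUs) and 0.03 above 5 kb (55 TUs), against 0.06 (103 TUs) and −0.16 (469 TUs) in middle TUs. Within an exonic length of 2 to 5 kb, the medians were 0.14 and −0.04 (higher in the most active on 10 of 11 chromosomes, adjusted p = 0.0234, exact sign test). This band did not match the groups in exon number.

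**Figure D3:**
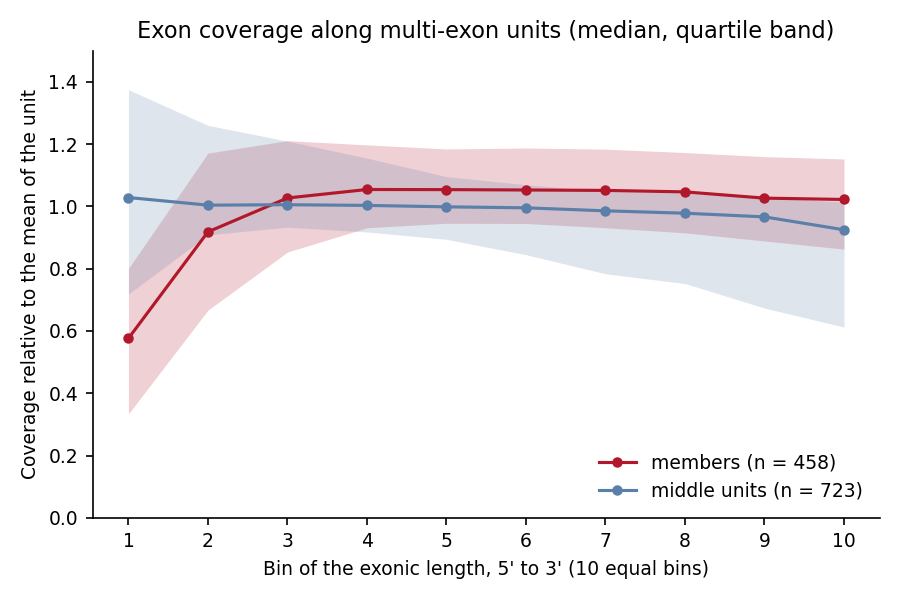
Coverage of 10 equal bins of the exonic length from the 5′ to the 3′ end, relative to the mean of the TU, as median (line) and quartiles (band) over 458 of the most active (members) and 723 middle TUs with several exons. The most active TUs start at 0.576 and stay near 1.05 from bin 4 to bin 8, and middle TUs start at 1.03 and end at 0.925.

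Several TUs departed from this profile through 1 long, weakly covered terminal exon. FORW.10279 on chromosome 28 (3880957 to 3883381) had the highest 3′ bias, 5.24, with 57.7 reads per base over a first exon of 922 bp and 1967 to 2682 over the 5 others. REV.232 on chromosome 1 (35250360 to 35254429) had a bias of 5.18, with 35.1 reads per base over a first exon of 1369 bp and 1712 to 2716 over the rest. FORW.4050 (4.87), REV.8593 (4.56) and REV.10239 (4.02) came next. The first exon of FORW.4050 measured only 378 bp of an exonic length of 1.196 kb. It was shorter than the 5′ part, so the bias of this TU did not rest on that exon alone. At the other end, REV.8308 on chromosome 16 (4736077 to 4740867) had a bias of −3.51, with 181.3 reads per base over a last exon of 1453 bp and 1909 to 2967 over the 7 exons before it. REV.1799 on chromosome 2 (44284553 to 44290085) had −3.35, with 194.1 over its last exon of 974 bp. FORW.3715 and FORW.10014 had −3.08 and −3.05. REV.2227 on chromosome 2 (102592539 to 102624894, FPKM 235.4) had −2.99, with 552.3 reads per base over a last exon of 6788 bp against 1721 to 8596 over its other 24 exons. FORW.3436, the fifth strongest TU, had −2.22, with 2494 reads per base over a last exon of 1938 bp and 11654 to 16012 over its 6 inner exons. Since FPKM averages over all exons, such a terminal exon lowers the FPKM of the whole TU.

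Many of the most active TUs had a weak copy of their splicing pattern in the run of the other strand. Of 459 TUs, 111 (24.2%; 20.5 to 28.3%) shared at least 1 intron, with identical start and end, with a TU of the other run, against 33 of 916 middle TUs (3.60%; 2.58 to 5.02%). Such a counterpart carried the same strand annotation as the active TU in 110 of 111 cases, so that its annotated strand was opposite to its own run. The counterpart had a median of 1.43% of the FPKM of the active TU (0.165 to 6.26%), and 109 of 111 were under 5%. A median of 8 introns was shared, and FORW.9002 on chromosome 19 (FPKM 378.4) shared 28 with REV.8832 (3.24). The share of TUs with a counterpart was 15.2% (44 of 289) at an FPKM under 100, 33.8% (46 of 136) from 100 to 200, 57.1% (16 of 28) from 200 to 500 and 83.3% (5 of 6) above 500. Assembly required 1.2 reads per base for a spliced transcript, and middle TUs had a median coverage of 21.1. A copy at the median share of 1.43% would fall under this minimum for such a TU. The contrast with middle TUs and the rise with FPKM therefore do not show how often weak copies occurred. Of the 33 middle TUs, 21 were themselves the weaker partner, of a TU with at least 10 times their FPKM.

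The leading TUs illustrate these pairs. FORW.662 had an FPKM of 1197 and its counterpart REV.634 had 9.22, or 0.770%. REV.9163 and FORW.9338 had 855.1 and 6.86, or 0.803%. REV.6840 and FORW.6955 had 795.4 and 4.80. REV.7841 and FORW.7999 had 732.0 and 18.5, or 2.53%, and FORW.3436 and REV.3288 had 665.9 and 10.9, or 1.63%. Of the TUs above 500 only FORW.4619 shared no intron. The single-exon TU REV.4446, with an FPKM of 1.97, overlapped it on the other strand. Over the whole assembly 372 TUs shared an intron with a TU of the other run of at least 10 times their FPKM, and 363 of these had a strand opposite to their run. They included 21 middle TUs. A strand opposite to the run was annotated for 2 of the most active TUs, FORW.8206 on chromosome 15 and REV.5267 on chromosome 6, and for 32 middle TUs.

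The counterparts count as overlapping or neighbouring TUs in several measures, and the tested ones are therefore given with and without them. A counterpart was defined by a shared intron, so a single-exon TU could not be one and stayed in the values without counterparts. Whether such single-exon TUs were weak copies was not tested. Overlap with any TU of the other run was found for 277 of the most active TUs (60.3%; 55.8 to 64.7%) and for 310 middle TUs (33.8%; 30.9 to 37.0%), higher on 23 of 26 chromosomes (adjusted p = 0.000176, exact sign test). With all 372 left out before TUs were ranked, a choice made after seeing the data, the shares were 42.6% and 32.4%, higher on 15 of 26 chromosomes (adjusted p = 0.608, exact sign test). The call was also lost without TUs under an FPKM of 1 (11.8 percentage points) and for multi-exon TUs only (14.5 points). Of the 277 overlapped TUs, 110 had a partner that shared an intron and 167 had none. Over the 355 pairs of an active TU and a partner, the partner had a median FPKM of 1.27 and a median percentile of 39.4. The partner was a single exon in 134 pairs, all among the 236 pairs without a shared intron, and itself among the most active in 6. A partner that overlapped more than 1 active TU counts in each pair.

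The TUs around the most active TUs were more active than those around middle TUs. As neighbours, TUs of either run that spanned 5 kb or more were ordered by midpoint. The mean FPKM percentile of both neighbours had a median of 66.8 (quartiles 51.9 and 78.4), against 56.0 (41.4 and 70.3) for middle TUs, and was higher on 19 of 26 chromosomes (adjusted p = 0.0434, exact sign test). Without counterparts the medians were 69.4 and 54.8, higher on 23 of 26 chromosomes (adjusted p = 0.000176, exact sign test). The call was lost in the reverse run alone, at the 95th percentile, without TUs under an FPKM of 1, with neighbours of any span and under the ranking by summed coverage (adjusted p from 0.0819 to 0.557, exact sign tests). Of 917 flanking TUs, 194 (21.2%) were at or above the 90th percentile of their run and 77 (8.40%) under the 25th, against 192 (10.5%) and 237 (13.0%) of 1825 flanking TUs of the middle group. Another of the most active TUs flanked at 56 of 917 positions (6.11%; 4.73 to 7.85%), against 51 of 1825 (2.79%; 2.13 to 3.66%) around middle TUs. Among the flanking TUs were 88 counterparts at the most active and 10 at middle TUs. Of the other 829 and 1815, 194 (23.4%) and 192 (10.6%) were at or above the 90th percentile. By position, the median percentile of downstream neighbours was 74.3 against 60.8 on the opposite strand, the convergent arrangement, and 67.8 against 52.8 on the same strand. For upstream neighbours it was 67.6 against 64.5 on the opposite strand, the divergent arrangement, and 64.9 against 53.2 on the same strand. These positions were compared without a test and only with counterparts included. At the most active TUs, counterparts were 52 of 245 upstream and 29 of 248 downstream neighbours on the same strand. On the opposite strand they were 3 of 214 and 4 of 210. At middle TUs they numbered 2 and 3 on the same strand and 4 and 1 on the opposite strand.

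The differences in orientation and spacing did not pass the test in the main comparison, though both passed under some alternatives. Neighbours on the same strand made up 53.8% for the most active and 60.3% for middle TUs (higher on 12 and lower on 14 chromosomes, adjusted p = 0.845, exact sign test). Counterparts made up 81 of the 493 same-strand neighbours of the most active TUs and 5 of the 1099 of middle TUs. Without counterparts the shares were 49.9% and 59.9%, a difference of −10.0 percentage points (adjusted p = 0.162, exact sign test). With direction taken from the run the difference was −13.6 points (adjusted p = 0.0577), and without TUs under an FPKM of 1 it turned to 1.40 points (adjusted p = 0.315, both exact sign tests). When only neighbours without overlap were counted, the shares differed by −11.7 percentage points (adjusted p = 0.00333, exact sign test). The difference also passed at the 95th percentile (−9.39 points, adjusted p = 0.014) and with neighbours of any span (−9.54 points, adjusted p = 0.0302, both exact sign tests). Of 13 alternatives, 3 passed, 9 kept the main result and 1 reversed the direction. The gap to the nearest neighbour was 0.548 kb against 2.92 kb (lower on 17 of 26 chromosomes, adjusted p = 0.225, exact sign test), and 1.79 kb against 3.65 kb without counterparts (13 chromosomes in each direction, adjusted p = 1, exact sign test). This gap passed the test under 7 of 12 alternatives, with differences of −1.84 to −3.86 kb. More TUs of any size lay within 100 kb of the most active, a median of 8 against 5, or 7 against 5 when counterparts were not counted.

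**Figure D4:**
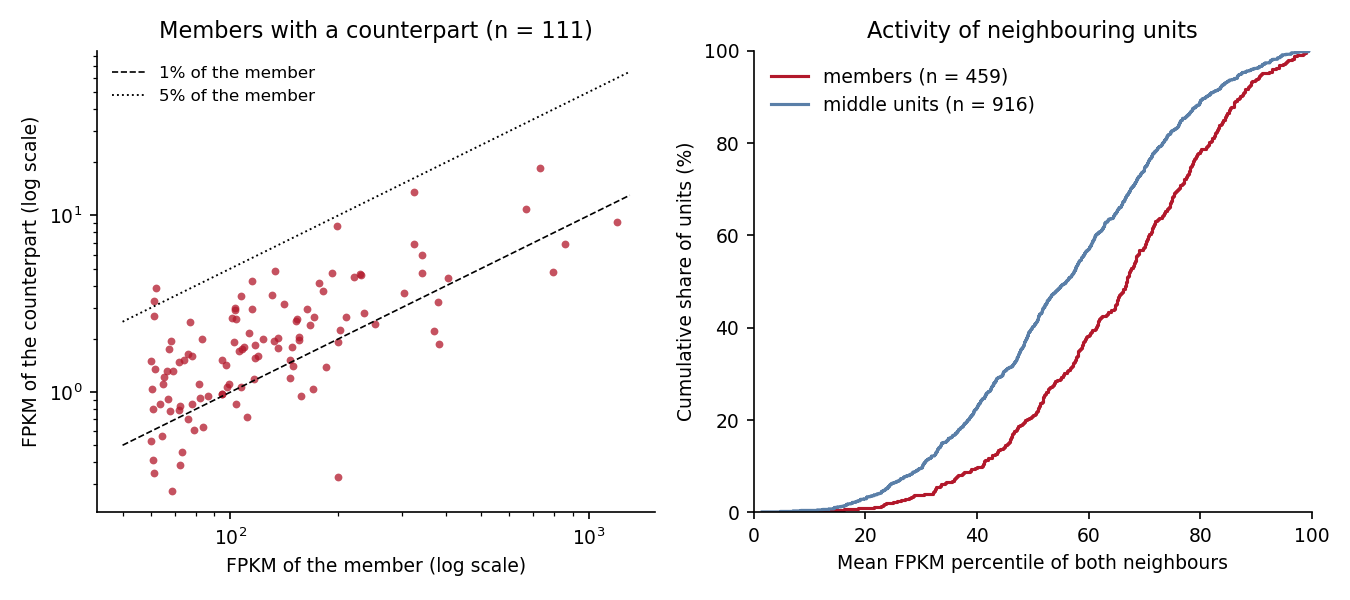
Left, FPKM of 111 of the most active TUs (members) against that of their counterparts, which share an intron in the other run (both log scales), with lines at 1% and 5%. Right, cumulative share of TUs by the mean FPKM percentile of both neighbours, with a median of 66.8 for 459 of the most active and 56.0 for 916 middle TUs.

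The most active TUs also lay close to each other. Another of them was within 100 kb for 151 of 459 (32.9%; 28.8 to 37.3%), against 57 of 458 middle TUs (12.4%; 9.73 to 15.8%) in a band narrowed to the 49th to 51st percentile to match the number. The share was higher on 17 of 23 chromosomes, lower on 5 and tied on 1 (adjusted p = 0.029, exact sign test). Without counterparts the shares were 32.8% and 13.6% (adjusted p = 0.0456, exact sign test). The groups were matched in number but not in local density. The most active TUs had a median of 8 other TUs within 100 kb, against 5 for the 916 middle TUs. The part of density in the closeness was not tested. The call was lost within either run alone, at the 99th percentile, without TUs under an FPKM of 1 and under the ranking by summed coverage (adjusted p from 0.067 to 0.402, exact sign tests). In 36 cases 2 of the most active TUs were neighbours, with 20 pairs co-directional, 12 convergent and 4 divergent by annotated strand. Neighbours had to span 5 kb or more, so shorter TUs could lie between a pair. The co-directional pairs include the overlapping FORW.8443 and FORW.8442. Close TUs of the same run were counted as separate, in these pairs and in the shares within 100 kb. Whether any such pair was 1 unit split in the assembly was not tested. The convergent pairs include FORW.8205 and FORW.8206, both of the forward run, of which FORW.8206 had a strand opposite to its run.

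The gap had a median of 2.01 kb in co-directional pairs, 3.82 kb in convergent pairs and 4.61 kb in divergent pairs, and the orientations were not tested against each other. The gap was under 5 kb in 13 of 20, 6 of 12 and 2 of 4 pairs, and it reached 124.6 kb in a co-directional pair. In REV.9898 and REV.9899 on chromosome 26 (FPKM 154.9 and 110.0) it was 0.567 kb. FORW.6658 and FORW.6659 on chromosome 9 (187.4 and 87.4) lay 0.150 kb apart, as did REV.10203 and REV.10204 on chromosome 28 (72.8 and 99.2). The gap was 0.152 kb in FORW.10104 and FORW.10105 on chromosome 27 (116.0 and 69.9) and 0.168 kb in REV.8933 and REV.8934 on chromosome 20 (73.4 and 148.8). The pairs on chromosomes 20, 27 and 28 were named for this gap after their values were seen. FORW.7817 and FORW.7819 on chromosome 13 were 7.36 kb apart, and REV.2403 and REV.2405 on chromosome 2 were 27.6 kb apart. Of the 5 strongest convergent pairs, FORW.6466 and REV.6290 on chromosome 8 lay 2.57 kb apart, FORW.3651 and REV.3500 on chromosome 3 lay 0.379 kb apart and FORW.7736 and REV.7545 on chromosome 13 lay 13.8 kb apart. FORW.2778 and REV.2664 on chromosome 3 (135.6 and 109.4) had the widest convergent gap, 62.1 kb, and FORW.6885 and REV.6774 on chromosome 10 (104.2 and 341.6) had 1.40 kb. Of the divergent pairs, REV.881 and FORW.990 on chromosome 1 (111.1 and 107.2) were 26.3 kb apart, REV.3917 and FORW.4050 on chromosome 4 (68.8 and 61.6) were 2.40 kb apart, and REV.232 and FORW.237 on chromosome 1 (62.2 and 61.3) overlapped.

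Groups of at least 3 of the most active TUs within 500 kb numbered 39 and held 133 of the 459 (29.0%). No such count was made for middle TUs, so this number has no reference. The most active TUs also lay in denser places, with a median of 8 other TUs within 100 kb against 5. The groups with the most members had 5. On chromosome 13 (3433740 to 3831076) these were FORW.7736, REV.7545, REV.7548, FORW.7741 and FORW.7742, with FPKM from 60.4 to 154.4. On chromosome 23 (5980173 to 6332207) the strongest was FORW.9613 with 250.3. On chromosome 27 (5703290 to 6182335) 4 of 5 were on the minus strand, with REV.10046 the strongest at 174.2. On chromosome 33 (1424119 to 1666032) FORW.10611 led with 147.1. A group of 4 on chromosome 1 (51058647 to 51431592) lay on the plus strand throughout, with FPKM from 69.0 to 90.3. Between 9.43% and 31.25% of the TUs counted in these 5 stretches were among the most active. This count can miss TUs that lie inside or overlap the outer members of a group. Smaller groups were packed more tightly, and those given here were named after their values were seen. REV.8662, FORW.8839, REV.8667 and REV.8668 lay within 62.1 kb of chromosome 18. REV.3917, FORW.4050 and REV.3919 lay within 33.4 kb of chromosome 4 and were 3 of the 5 TUs counted there. On chromosome 1, REV.881, FORW.990 and REV.882 lay within 155.8 kb. The weaker TUs FORW.986 and FORW.987 lay inside REV.881, and FORW.989 overlapped REV.882.

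Of 40 nuclear chromosomes, 34 held at least 1 of the most active TUs. Their share among the TUs of a chromosome had an interval above 2% on chromosome 15 (17 of 435, 3.91%), 18 (16 of 401, 3.99%), 19 (15 of 354, 4.24%) and 33 (9 of 195, 4.62%), and below 2% on chromosome 2 (25 of 2192, 1.14%; 0.774 to 1.68%). These intervals treat the TUs of a chromosome as independent and were not adjusted for the 40 chromosomes. On chromosome 33, 5 of the 9 lay in 1 group of 241.9 kb. Chromosome 1 held the most, 54 of 2930 (1.84%), and Z held 23 of 1097 (2.10%). None was found on W (0 of 156, which allows a share of up to 1.92% at 3 counts) or on chromosomes 34 to 38, where 0 of 70 to 0 of 120 TUs allows 2.50 to 4.29%. The Wilson intervals of these chromosomes reached 2.40% on W and 3.10 to 5.20% on 34 to 38, so each covered 2%. The mean share was 1.72 ± 0.316% on chromosomes 1 to 5 and Z (SD, n = 6) and 2.11 ± 1.32% on the other autosomes (n = 33), where 5 small chromosomes without any of these TUs count in full. Pooled over TUs, the shares were 1.69% (199 of 11753) and 2.37% (260 of 10973). The difference of the means did not pass an exact two-sided permutation test over all 3262623 splits of the chromosomes (adjusted p = 0.524).

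**Figure D5:**
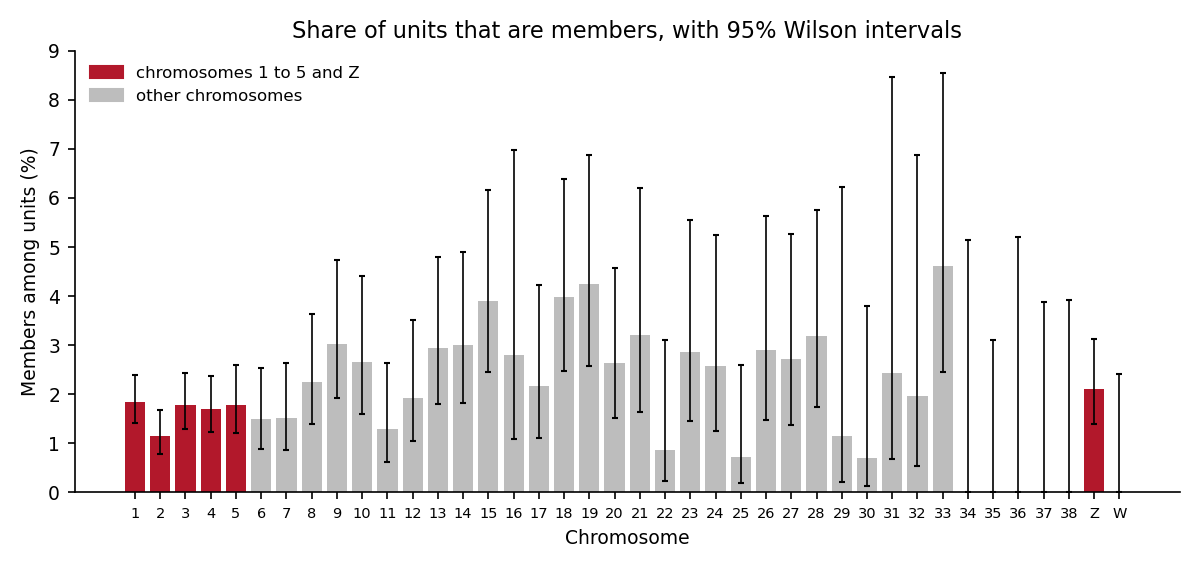
Share of the TUs of each chromosome that are among the most active (%, bars), with 95% Wilson intervals. Chromosomes 1 to 5 and Z lie between 1.14% and 2.10%, and the highest shares are those of chromosomes 33 (4.62%), 19 (4.24%), 18 (3.99%) and 15 (3.91%).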

How the data were processed

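Per the labels and the study's methods, oligo(dT)-selected, dUTP-stranded libraries from nuclei and ooplasm were sequenced as paired ends. The authors trimmed reads with cutadapt, aligned them to ASM2420605v2 with HISAT2, split them by direction, removed duplicates with SAMtools and assembled the pooled reads with StringTie 2.2.2, separately for each direction. The deposited file gives, for each transcript, coverage (reads per base), FPKM and TPM scaled by the authors within a run. The file header gives minima of 1000 bp for transcript length and 1.2 reads per base for coverage (3.5 for single exons). The minimum was 0.05 for the isoform fraction and 5 reads for a junction. Weak or short TUs are therefore missing. The gap allowed between read mappings was set at 300 bp. TUs of the same run and strand could still lie closer, such as FORW.6658 and FORW.6659 at 0.150 kb.

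Percentiles were taken within each run over nuclear TUs. Only chromosomes with at least 5 TUs in both groups entered the sign tests. TUs of 1 assembly are not replicates, so p-values cover no variation between oocytes. The sign tests use only the direction of the difference on each chromosome, not its size, and count every chromosome alike. The permutation test describes the spread of shares over chromosomes in this assembly. Members, lists and tests were chosen with earlier results of these data known. Exonic length and exonic share had been planned with a test, which was dropped because FPKM divides by exonic length. The test of span was kept, although span contains the exonic length. Named TUs were, besides those next to the threshold, the 10 with the highest FPKM of each run (the leading ones are printed), the 5 most extreme in span, exon number, 3′ bias and transcript number, the single-exon TUs, the 5 groups with most members in 500 kb, the 5 strongest adjacent pairs of each orientation (some pairs left out) and the 5 strongest overlapped TUs. Alternatives changed the percentile, the run, the middle band, the FPKM score, the neighbour definition and a filter on low FPKM. Scripts (Python 3.11.15, NumPy 2.4.6, pandas 2.3.3, SciPy 1.17.1) were tested on simulated data. Gene names and sequences were not used here, since the reference table describes another assembly.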

Additional observations from a re-analysis of the deposited data

Results flagged for a closer look

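The mitochondrial TU of the forward run, FORW.11420, had an FPKM of 228.3 and lies outside the rule, which took nuclear TUs only. This value is above the forward limit of 59.1. The TU was a single exon of 16.8 kb, and the mitochondrial TU of the reverse run, REV.11464, had an FPKM of 9.45. It stands out because it is a signal in data that the comparisons did not use, and no control sample bears on it.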

How the results depend on the processing

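No paired analysis was possible because reads were pooled before assembly and no deposited value can be traced to 1 library. For the same reason no library could be left out, and the depth behind a value is known only as coverage. Of 147 alternatives over 14 results, 116 kept direction and side of the threshold. The difference of the most active minus the middle TUs is given below, and where no cause is named the cause was not tested.

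With TUs under an FPKM of 1 left out before ranking, both groups were chosen anew from fewer TUs. The exon number then differed by 2, the single-exon share by −7.48 points and the exonic share by −17.3 points. The neighbour percentile differed by 8.01, overlap by 11.8 points and close TUs by 13.2 points. The co-directional share turned to 1.40 points. Ranking by coverage summed over exonic length, which was chosen after seeing the data and no longer divides by exonic length, turned the span to 12.1 kb and gave −0.0325 kb for exonic length, −23.7 points for exonic share, 0.0718 for 3′ bias (log2), −1.84 kb for the gap, 0.721 for the neighbour percentile and 8.26 points for close TUs. At the 99th percentile the intron differed by −0.379 kb, the gap by −2.55 kb and close TUs by 13.9 points. At the 95th percentile the neighbour percentile differed by 10.6 and the co-directional share by −9.39 points.

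The gap differed by −2.58 kb with summed FPKM, −2.51 kb against the 40th to 60th percentile, −2.44 kb for multi-exon TUs, −2.10 kb with neighbours of any span and −3.86 kb without overlapping neighbours. Neighbours of any span gave 7.48 for the neighbour percentile and −9.54 points for the co-directional share, which was −11.7 points without overlap. Overlap with the other run differed by 14.5 points for multi-exon TUs and by 10.1 points without counterparts, also added after seeing the data. The reverse run alone gave 9.97 for the neighbour percentile and 13.0 points for close TUs, which differed by 10.9 points in the forward run. The wider middle band was not run for close TUs, since both groups had to be of equal size.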
